A study of Mus musculus with 12 samples.

Results

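The genes described here are those carried by the mitochondrial genome. They were taken as every gene whose symbol starts with *mt-*, which gave 37 of the 54146 genes quantified. They comprise 13 protein-coding genes, each counted here as an mRNA, 2 rRNAs and 22 tRNAs.

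The study removed *Prdm10*, which encodes a PR domain zinc finger protein, from mouse embryonic stem cells (mESCs) in culture and asked which transcripts depend on it. The cells were of C57BL/6 origin and carried *Prdm10*F/F (floxed) alleles with Rosa26-CreERT2, a Cre recombinase that is active only once 4-hydroxytamoxifen (OHT) binds it. All cells therefore carried the same alleles and the same recombinase, and grew on gelatin in medium with serum and LIF. They received 50 nM OHT for 24 h, which gave the libraries labelled *Prdm10*del/del, or ethanol (EtOH), the solvent, which gave the libraries labelled *Prdm10*F/F. Cells were harvested at Day 2 or Day 4, with 3 libraries in each of the 4 groups. The labels do not state that the 3 libraries of a group were separate cultures, so that p-values measure only the spread between these libraries, which may be technical.

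The 12 libraries held between 35017667 and 41409992 expected counts. The summed TPM of 8 mESC markers, among them *Pou5f1* and *Nanog*, lay between 913 and 1155 in every library, whereas 8 fibroblast markers summed to at most 3.44 TPM and 10 markers of differentiated lineages to at most 4.02 TPM. The targeted gene went against the labels when counted as a whole. *Prdm10* had 801 ± 29.4 normalised counts (SD, n = 3) in EtOH and 2173 ± 80.3 in OHT at Day 2, and 869 ± 45.8 and 2012 ± 67.5 at Day 4. Only part of the gene is floxed, so that a count over the whole gene cannot check the deletion, and the groups are called here by their labels.

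Mammalian mitochondrial DNA is a small circle read from both strands. Its RNAs start as long precursors, from which the tRNAs that lie between most of the other genes are cut out, which releases the mRNAs and rRNAs. Nearly all mRNAs and both rRNAs are read in one direction (here called the heavy-strand genes, + in the annotation), and *mt-Nd6* is the only mRNA read in the other. The mRNAs encode core subunits of the respiratory chain and of ATP synthase, whose other subunits, like the whole machinery that makes and processes mitochondrial RNA, come from nuclear genes.

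Both rRNAs, 12 mRNAs and 14 tRNAs lie on the + strand, and *mt-Nd6* and 8 tRNAs on the other strand. The tRNAs are 59 to 75 bases long, shorter than the fragments sequenced, whose mean length by RSEM was 155.8 to 159.9 bases. All 22 tRNAs had an effective length of 0 and are listed at 0 in all 12 libraries, so that these files do not measure them. The other 15 genes all passed the minimum of a mean normalised count above 100.

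Copies of mitochondrial genes in the nuclear genome decide how their reads can be counted. A search of annotated transcripts for matches of at least 95% identity over at least 100 bases found 11 such copies, which match 9 of the mitochondrial genes. The 7 copies on chromosome 1 lie side by side on the minus strand over 4663 bases (chr1:24611535-24616197, GRCm38) and are annotated as unprocessed pseudogenes. Of these, 5 have no mismatch to the mitochondrial gene over the aligned bases. They are *Gm28661* (*mt-Co2*, 681 bases), *Gm10925* (*mt-Atp6*, 678 bases), *Gm28437* (*mt-Co3*, 783 bases), *Gm10222* (*mt-Nd4l*, 294 bases) and *Gm28439* (*mt-Nd4*, 876 bases).

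The sequences below, from GENCODE vM21 transcripts on GRCm38, show why reads of such a pair can hardly be assigned. They are 60-base windows, 5′ to 3′, with capitals at the base that differs. *Gm28438* differs from *mt-Nd3* by T3C and *Gm29216* from the last 483 bases of *mt-Co1* by A1066T, where positions count from the first base of the mitochondrial gene, its base stands first and the copy's base last. The windows of *mt-Co2* and *Gm28661* are identical.
mt-Nd3 (chrM:9459-9518, + strand): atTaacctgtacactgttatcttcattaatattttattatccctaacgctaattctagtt
Gm28438 (chr1:24613060-24613119, minus strand): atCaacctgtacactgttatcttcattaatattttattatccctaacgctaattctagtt
mt-Co1 (chrM:6390-6449, + strand): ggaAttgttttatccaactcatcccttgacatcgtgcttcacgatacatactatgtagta
Gm29216 (chr1:24616129-24616188, minus strand): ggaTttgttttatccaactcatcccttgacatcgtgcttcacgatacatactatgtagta
mt-Co2 (chrM:7013-7072, + strand): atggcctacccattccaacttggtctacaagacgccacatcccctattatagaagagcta
Gm28661 (chr1:24615506-24615565, minus strand): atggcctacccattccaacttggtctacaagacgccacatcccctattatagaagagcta

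RSEM divided the reads of each pair between both genes, and the division varied from library to library. Of the combined expected count of *mt-Co2* and its copies, between 0.786% and 3.91% was given to *mt-Co2*, and *Gm28661* held 60047 to 91461 counts. The share given to *mt-Co3* ran from 18.5% to 72.2%, that given to *mt-Atp6* from 22.7% to 64.9%, that given to *mt-Nd4l* from 27.5% to 82.6% and that given to *mt-Nd3* from 67.7% to 100.0%. *mt-Co1*, whose copy covers only its end, received between 89.7% and 90.9%. The posterior SD, RSEM's own error on a count, was large for the same genes. It reached 6904 counts for *mt-Co3*, 3871 for *mt-Co2*, 2477 for *mt-Atp6* and 984 for *mt-Nd3*, against at most 281 for *mt-Co1*, at most 0.03 for *mt-Rnr2* and *mt-Nd5* and 0 for *mt-Rnr1*, *mt-Nd1*, *mt-Atp8*, *mt-Nd6* and *mt-Cytb*. For *mt-Nd4l* it was 97.15 to 149.33, which is large beside expected counts of only 230.82 to 744.12. The posterior mean, a second estimate in the same files, gave *mt-Co2* between 10.98% and 17.9% of the combined count. *Gm28439* and the copies on other chromosomes (*Gm13339*, *Gm13340* and *Gm13341* on chromosome 2, *Gm4076* on chromosome 13) received at most 14.95 counts.

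**Figure D1:**
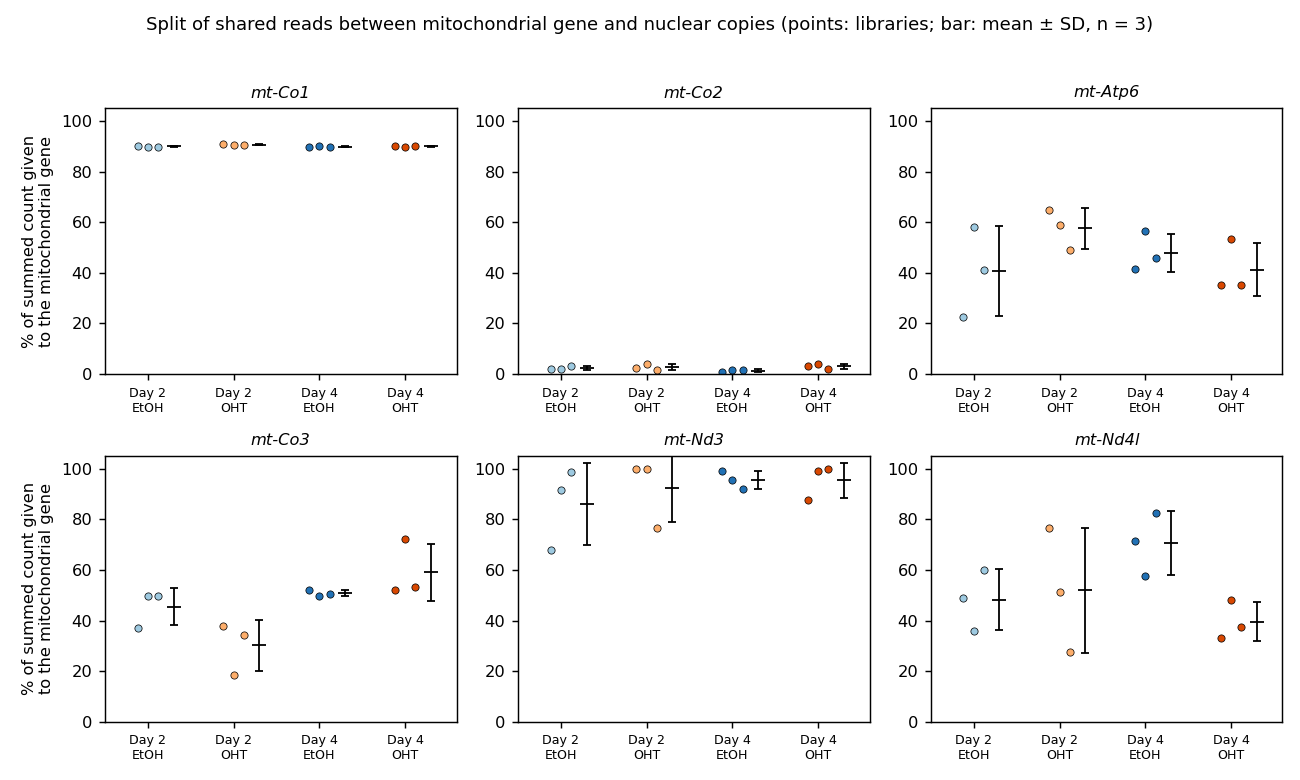
The percentage of the combined expected count that was given to the mitochondrial gene (vertical axis) is plotted for 6 genes in each of the 12 libraries, with the mean and SD of each group of 3. *mt-Co1* stays between 89.7% and 90.9%, *mt-Co2* stays at or below 3.91%, and the libraries of one group scatter widely for *mt-Atp6*, *mt-Co3*, *mt-Nd3* and *mt-Nd4l*.

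The sum over a gene and its copies does not depend on this division, and for *mt-Co2*, *mt-Co3*, *mt-Atp6*, *mt-Nd3* and *mt-Nd4l* the combined counts were less variable between libraries in each of the 4 groups. Their coefficients of variation ran from 5.53% to 46.5% for the genes alone and from 0.77% to 8.59% for the combined counts, whereas those of *mt-Co1* were at most 2.70% either way. For *mt-Co3* in OHT at Day 2, the gene alone had 24057 ± 8260 normalised counts (SD, n = 3) and the combined count was 79710 ± 1308. For *mt-Atp6* in EtOH at Day 2 the same values were 13443 ± 6250 and 32816 ± 1214. Results are therefore given for the genes as deposited and for the combined counts, in which the nuclear copies are summed into the mitochondrial gene. Reads from the copies themselves, if there were any, stay in the combined counts and cannot be told apart. Neighbouring genes also overlap. On the same strand, *mt-Atp8* and *mt-Atp6* share 43 bases and *mt-Nd4l* and *mt-Nd4* share 7, so that the genes of such a pair are not independent results. *mt-Nd5* and *mt-Nd6*, on opposite strands, share 14.

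The abundance of the mRNAs, compared per length in TPM with copies summed in, spanned a wide range. In EtOH at Day 2, *mt-Co1*, the catalytic core of cytochrome c oxidase (complex IV), was the highest at 7466 ± 101 TPM (SD, n = 3). This sum is inflated, since the TPM of its copy *Gm29216* is taken over only 492 bases. Without the copy, *mt-Co1* had 5116, 5170 and 5051 TPM. Next came the other mitochondrial subunits of that complex, *mt-Co3* at 3722 ± 65.6 and *mt-Co2* at 3150 ± 74.5. *mt-Atp8* followed at 2291 ± 98.4, *mt-Nd3* at 1525 ± 55.0 and *mt-Atp6* at 1322 ± 45.3. At 204 bases, *mt-Atp8* had an effective length of only 52.06 to 54.76 bases, so that its TPM and its place in the order depend strongly on the fragment lengths. *mt-Nd1* stood at 709 ± 16.6 and *mt-Cytb* at 368 ± 23.4. The lowest 5 were *mt-Nd2* at 164 ± 8.91, *mt-Nd4l* at 128 ± 4.48, *mt-Nd4* at 112 ± 11.6, *mt-Nd6* at 109 ± 15.1 and *mt-Nd5* at 87.5 ± 5.99. In this order, the libraries of neighbouring mRNAs overlapped only for *mt-Nd4* and *mt-Nd6* in EtOH at Day 2. In the other groups *mt-Co3* and *mt-Co2* overlapped. *mt-Nd3*, which stood above *mt-Atp6* in EtOH at Day 2, overlapped with it in OHT, and at Day 4 it overlapped with *mt-Atp8* instead. The rRNAs had 2979 ± 405 TPM for *mt-Rnr2* and 647 ± 162 for *mt-Rnr1*. The libraries were made with a stranded total RNA kit, a kind of kit that removes rRNA, and whether mitochondrial rRNA was among the targets is not given in the sources used here, so that rRNA levels are not compared with mRNA levels.

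At Day 4, mitochondrial mRNAs were lower in the libraries labelled OHT than in those labelled EtOH, and *mt-Nd6* was the exception. With copies summed in, 12 of 13 mRNAs fell (DESeq2, adjusted p below 0.05), as did 1 of 2 rRNAs. None rose, and 0 rose at an unadjusted p below 0.05 either. The background was 21.7% of 11549 genes called lower and 23.5% called higher. For the genes as deposited, 11 of 13 mRNAs and 1 of 2 rRNAs were called lower (background 21.7% of 11555 genes lower, 23.5% higher). The median log2 fold change of the 13 combined mRNA counts was -0.59, beside 0.01 over all genes tested.

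Complex IV, the last complex of the respiratory chain, contains the 3 most abundant mitochondrial mRNAs. The combined count of *mt-Co1* was 343443, 349533 and 347003 normalised counts in EtOH and 190920, 189217 and 186986 in OHT at Day 4, so that the groups were far apart and each group was tight. It fell by 0.88 ± 0.02 on the log2 scale (SE, adjusted p = 2.5e-304 by DESeq2). On the linear scale it fell by 45.6%. *mt-Co3* had 123991, 120757 and 115059 in EtOH against 75708, 76102 and 76990 in OHT, and fell by 0.66 ± 0.03 (SE). *mt-Co2* had 94151, 91790 and 88339 in EtOH against 61448, 61698 and 64287 in OHT, and fell by 0.55 ± 0.03 (SE). No library of one label overlapped those of the other for any of these 3 genes. As deposited, *mt-Co3* fell by 0.44 ± 0.17 (SE), and the call was kept only when OHT replicate 2 was the library left out.

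*mt-Co2* as deposited looked different. It had 740, 1416 and 1485 normalised counts in EtOH and 1846, 2341 and 1347 in OHT at Day 4, and its log2 fold change was 0.60 ± 0.38 (SE, adjusted p = 0.235 by DESeq2). The edgeR quasi-likelihood test called this gene higher. The posterior mean counts gave -0.46, and its copy *Gm28661*, which held nearly all of the reads, fell by 0.58 ± 0.03 (SE).

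Complex I, where NADH is oxidised, has 7 subunits encoded in mitochondrial DNA. At Day 4, the 6 on the heavy strand all fell. *mt-Nd1* had 37200, 38459 and 34997 normalised counts in EtOH and 23076, 22807 and 23537 in OHT, and fell by 0.67 ± 0.03 on the log2 scale (SE). *mt-Nd2* fell by 0.59 ± 0.05, *mt-Nd3* with its copy by 0.56 ± 0.04, *mt-Nd4* with its copy by 0.55 ± 0.12 and *mt-Nd5* by 0.33 ± 0.05 (SE). *mt-Nd4l* depended on its copy most. As deposited it fell by 1.11 ± 0.13 (SE), whereas the combined count, 874, 884 and 911 in EtOH and 773, 722 and 724 in OHT, fell by 0.27 ± 0.07 (SE, adjusted p = 0.00113 by DESeq2).

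*mt-Nd6*, the complex I subunit read from the other strand, did not fall with them. It had 2298, 1899 and 2284 normalised counts in EtOH and 2340, 2350 and 2105 in OHT at Day 4, with overlap between the groups. Its log2 fold change was 0.07 ± 0.07 (SE, adjusted p = 0.505 by DESeq2).

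*mt-Cytb*, the mitochondrial subunit of complex III, had 25301, 26583 and 24206 normalised counts in EtOH and 16315, 15792 and 17655 in OHT at Day 4. It fell by 0.61 ± 0.04 on the log2 scale (SE). Both mitochondrial subunits of ATP synthase fell alongside, *mt-Atp8* by 0.60 ± 0.04 and *mt-Atp6* with its copy by 0.60 ± 0.03 (SE). As deposited, *mt-Atp6* fell by 0.82 ± 0.26 (SE), and the call was lost without EtOH replicate 2, OHT replicate 1 or OHT replicate 3, with log2 fold changes between -0.72 and -0.65.

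The rRNAs, which form the core of the mitochondrial ribosome, parted at Day 4. *mt-Rnr1*, the rRNA of the small subunit, had 27297, 26861 and 26570 normalised counts in EtOH and 18439, 16512 and 20256 in OHT, and fell by 0.55 ± 0.08 on the log2 scale (SE). *mt-Rnr2*, that of the large subunit, had 218080, 209344 and 199594 in EtOH and 194743, 185941 and 216534 in OHT, with overlap, and a log2 fold change of -0.07 ± 0.07 (SE, adjusted p = 0.501 by DESeq2). Without Day 4 OHT replicate 3, the highest of its group, *mt-Rnr2* was called lower at -0.14 ± 0.04 (SE, adjusted p = 0.00204 by DESeq2). The log2 ratio of *mt-Rnr1* to *mt-Rnr2* counts was -2.96 ± 0.04 in EtOH and -3.44 ± 0.05 in OHT (SD, n = 3, exact permutation p = 0.1, two-sided, the smallest that 3 against 3 libraries allow).

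**Figure D2:**
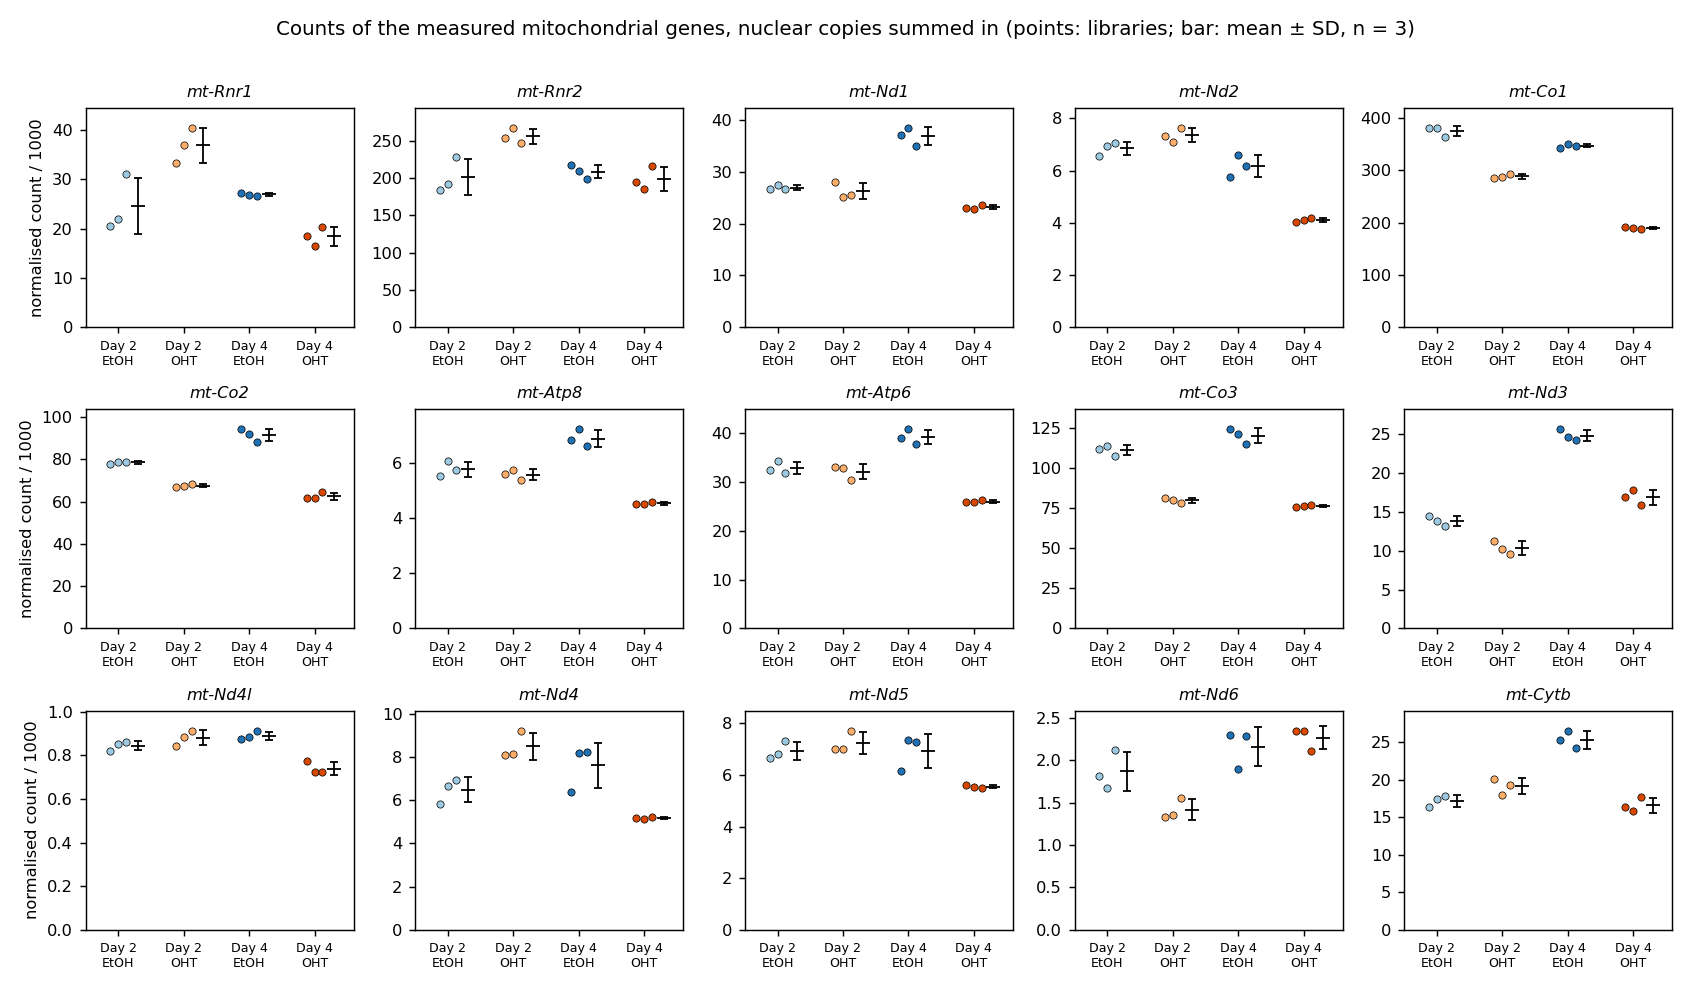
Normalised counts divided by 1000 (vertical axes, each from 0) of the 15 measured genes are plotted in their order along the mitochondrial genome, with nuclear copies summed in, as 1 point per library with the mean and SD of each group. At Day 4 the OHT libraries lie below the EtOH libraries for all genes but *mt-Rnr2* and *mt-Nd6*, whereas at Day 2 some genes are lower and some higher.

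At Day 2 the picture was mixed. With copies summed in, 5 of 13 mRNAs fell and 2 rose, and both rRNAs rose. The background was 10.7% of 11638 genes called lower and 9.19% called higher. As deposited, 3 mRNAs were called lower and 2 higher, with both rRNAs higher (background 10.6% of 11644 genes lower, 9.17% higher). The median log2 fold change of the 13 combined mRNA counts was -0.04, beside -0.03 over all genes tested. The balance of calls over all genes at Day 2 depended on the scaling, with 1068 genes higher and 1240 lower by size factors of DESeq2 but 1390 higher and 639 lower by total counts. By total counts, the same 3 mRNAs as deposited were lower and *mt-Nd2* joined those called higher.

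The mRNAs that fell at Day 2 included every mitochondrial mRNA of complex IV. The combined count of *mt-Co1* was 380826, 380464 and 363856 in EtOH and 284616, 287047 and 293334 in OHT, a fall of 0.38 ± 0.03 on the log2 scale (SE, adjusted p = 4.2e-26 by DESeq2). *mt-Co3* fell by 0.48 ± 0.04 (SE), from 111860, 113370 and 107366 in EtOH to 81013, 79718 and 78398 in OHT. *mt-Co2* fell by 0.22 ± 0.03 (SE), from 77762, 78878 and 78735 in EtOH to 67067, 67291 and 68166 in OHT. As deposited, *mt-Co3* fell by 1.07 ± 0.32 (SE), a value that rests on the division of reads, and its call was lost without either of 2 EtOH libraries, replicates 2 and 3.

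The other mRNAs that fell at Day 2 belong to complex I. *mt-Nd3* with its copy had 14470, 13795 and 13149 in EtOH and 11301, 10197 and 9541 in OHT, and fell by 0.42 ± 0.06 (SE). *mt-Nd6* had 1817, 1667 and 2122 in EtOH and 1334, 1357 and 1558 in OHT, and fell by 0.40 ± 0.08 (SE, adjusted p = 5.25e-05 by DESeq2). Hence *mt-Nd6* was lower in OHT at Day 2, whereas at Day 4 the groups overlapped.

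*mt-Nd4* rose at Day 2, with 5838, 6673 and 6931 normalised counts as deposited in EtOH and 8096, 8143 and 9227 in OHT. Its log2 fold change was 0.39 ± 0.06 (SE, adjusted p = 6.33e-08 by DESeq2), and its call was kept without each library in turn. Its neighbour *mt-Nd4l*, which overlaps it on the same strand, gave only 0.06 ± 0.08 with copies summed in (SE) and was not called. *mt-Cytb* had 16345, 17489 and 17888 in EtOH and 20157, 17977 and 19374 in OHT, a log2 fold change of 0.15 ± 0.05 (SE, adjusted p = 0.0181 by DESeq2), but its call was lost without EtOH replicate 1 (0.11 ± 0.06, SE), EtOH replicate 2 (0.16 ± 0.06, SE) or OHT replicate 1 (0.12 ± 0.06, SE). The remaining mRNAs (*mt-Nd1*, *mt-Nd2*, *mt-Nd4l*, *mt-Nd5*, *mt-Atp6* and *mt-Atp8*) had log2 fold changes between -0.05 and 0.10 with copies summed in and were not called.

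*mt-Rnr1* had 20535, 21918 and 31014 normalised counts in EtOH and 33281, 36866 and 40380 in OHT at Day 2, with EtOH replicate 3 apart from its group. Its log2 fold change was 0.59 ± 0.21 (SE, adjusted p = 0.0374 by DESeq2). *mt-Rnr2* had 184047, 192209 and 228541 in EtOH and 254591, 267444 and 247087 in OHT, with a log2 fold change of 0.35 ± 0.11 (SE, adjusted p = 0.0111 by DESeq2). Neither group pair overlapped, but the call for *mt-Rnr1* was lost without any of 5 libraries, that is all but EtOH replicate 3, with log2 fold changes between 0.47 and 0.66. The call for *mt-Rnr2* was lost without EtOH replicate 2, OHT replicate 1 or OHT replicate 2, with log2 fold changes between 0.31 and 0.35. The 354 nuclear genes annotated as rRNA took 0.00648% ± 0.00062 of the counts in EtOH and 0.00582% ± 0.00066 in OHT at Day 2 (SD, n = 3), with overlap, and the part of rRNA removal in the rRNA values was not tested.

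**Figure D3:**
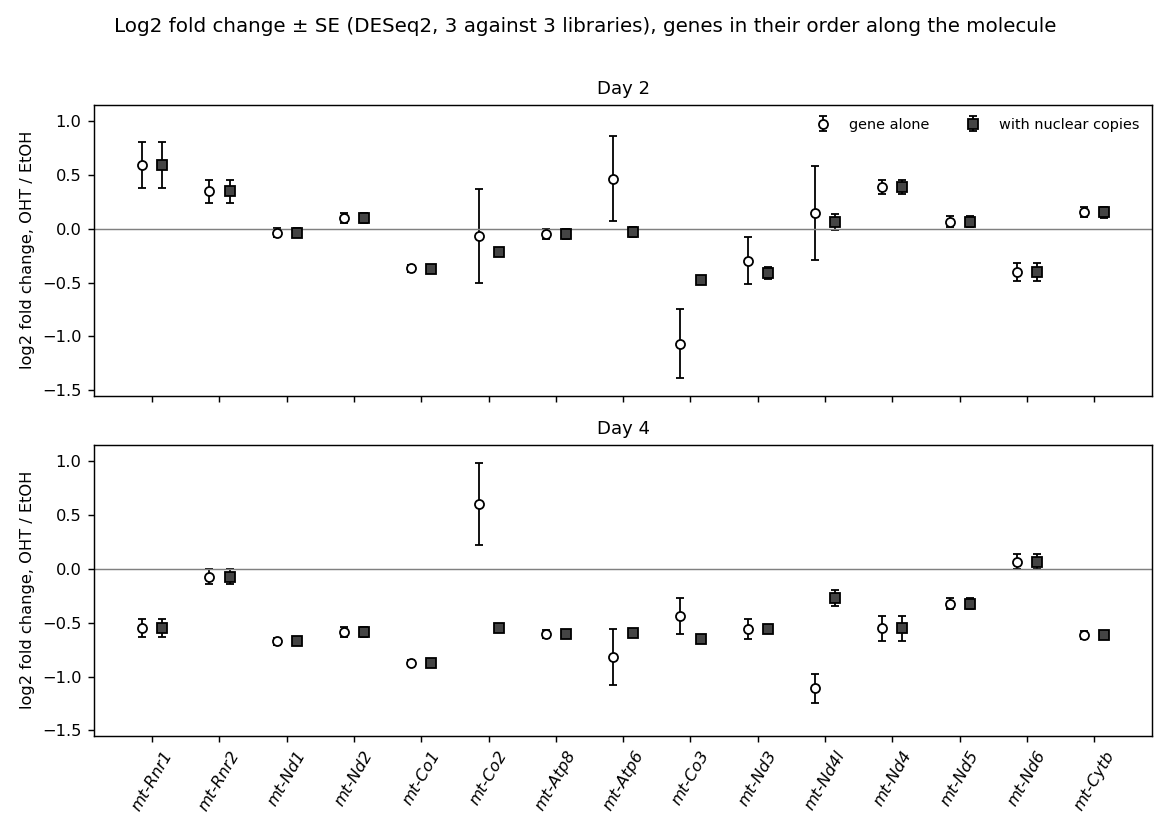
The log2 fold change of OHT over EtOH (vertical axis) with its SE is plotted for each gene at Day 2 (top) and Day 4 (bottom), in the order of the genes along the mitochondrial genome, for genes as deposited (open circles) and with nuclear copies summed in (filled squares). At Day 4 all filled squares but those of *mt-Rnr2* and *mt-Nd6* lie at or below -0.27, and the circles of *mt-Co2*, *mt-Atp6*, *mt-Co3* and *mt-Nd4l* stand away from their squares with long error bars.

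The difference between the days was tested directly, with an interaction term for treatment and day in a fit of the 12 libraries together. With copies summed in, the log2 fold change was more negative at Day 4 than at Day 2 for 11 of 13 mRNAs and both rRNAs (background 13.5% of 11610 genes called lower and 18.7% called higher). As deposited it was so for 9 of 13 mRNAs and both rRNAs (background 13.6% of 11616 genes lower, 18.7% higher). For *mt-Nd4* the difference was -0.94 ± 0.15 (SE), for *mt-Cytb* -0.77 ± 0.07, for *mt-Nd2* -0.69 ± 0.07 and for *mt-Nd1* -0.64 ± 0.06. For the complex IV mRNAs with copies it was -0.50 ± 0.03 for *mt-Co1*, -0.33 ± 0.04 for *mt-Co2* and -0.18 ± 0.04 for *mt-Co3* (SE). *mt-Nd6* was the only one with a positive difference past the threshold, 0.47 ± 0.13 (SE, adjusted p = 0.00158 by DESeq2), a call that was lost without Day 2 OHT replicate 2. *mt-Nd3* with its copy gave -0.14 ± 0.08 (SE, adjusted p = 0.188 by DESeq2). Over all genes, 2173 differences were positive and 1574 negative by size factors of DESeq2 and 1664 and 2098 by total counts, whereas the counts of mitochondrial genes did not move with this choice.

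The days were also compared within each label. These comparisons use the same libraries as those above and are not independent of them. In EtOH, 7 mRNAs rose from Day 2 to Day 4 with copies summed in and 2 fell, while neither rRNA was called (background 20.7% of 11566 genes higher, 20.5% lower). Without Day 2 EtOH replicate 3, both rRNAs as deposited were called higher, with log2 fold changes of 0.34 in place of 0.13 for *mt-Rnr1* and 0.15 in place of 0.05 for *mt-Rnr2*. As deposited, 4 mRNAs rose and 2 fell (background 20.6% of 11572 genes higher, 20.5% lower). With copies summed in, *mt-Nd3* rose most, by 0.84 ± 0.04 on the log2 scale (SE, 1.00 ± 0.13 as deposited). *mt-Cytb* (0.55 ± 0.04) and *mt-Nd1* (0.45 ± 0.04) followed, whereas *mt-Co1* fell by 0.12 ± 0.03 and *mt-Nd2* by 0.15 ± 0.05 (SE). The call for *mt-Nd2* as deposited was lost without Day 2 EtOH replicate 2 or 3 or Day 4 EtOH replicate 1, with log2 fold changes between -0.14 and -0.10.

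In OHT, 10 mRNAs and both rRNAs fell from Day 2 to Day 4 with copies summed in and 2 mRNAs rose (background 23.0% of 11632 genes lower, 30.8% higher). As deposited, 8 mRNAs and both rRNAs fell and 3 mRNAs rose (background 23.0% of 11638 genes lower, 30.8% higher). With copies summed in, *mt-Rnr1* fell by 1.00 ± 0.12 on the log2 scale (SE), *mt-Nd2* by 0.83 ± 0.04, *mt-Nd4* by 0.71 ± 0.05 and *mt-Co1* by 0.61 ± 0.03. On the same counts *mt-Nd3*, with a log2 fold change of 0.71 ± 0.05 (SE), and *mt-Nd6*, with 0.68 ± 0.07, rose. *mt-Co3* shows the weight of the copies once more, since it was called higher as deposited (0.91 ± 0.33, SE) but not with its copy summed in (-0.06 ± 0.03, SE, DESeq2 adjusted p = 0.0848). The call as deposited was lost without Day 2 OHT replicate 3 (0.99) or Day 4 OHT replicate 2 (0.74). As deposited, the call for *mt-Atp6* was lost without any of Day 2 OHT replicates 1 and 2 and Day 4 OHT replicates 1 and 3, that for *mt-Cytb* was lost without Day 2 OHT replicate 3, and *mt-Nd4l* was called lower without that same library (-0.92).

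The share of a library taken by mitochondrial mRNA compares the groups without a fit, but it follows the mRNAs with the most counts. In EtOH at Day 2, *mt-Co1* alone held 54.8% of the mitochondrial mRNA counts with copies summed in. At Day 2 the complex IV mRNAs fell, whereas most of the other mRNAs were not called lower. As deposited, the 13 mRNAs took 1.25% ± 0.05 of all counts in EtOH and 1.03% ± 0.03 in OHT at Day 2, and 1.33% ± 0.03 and 0.792% ± 0.030 at Day 4 (SD, n = 3). With copies summed in, the shares were 1.76% ± 0.03 and 1.46% ± 0.01 at Day 2 and 1.86% ± 0.03 and 1.12% ± 0.01 at Day 4. On these shares of counts the groups did not overlap on either day, and each comparison reached p = 0.1 in the exact two-sided permutation test, the smallest that 3 against 3 libraries allow. As a share of TPM, the Day 2 difference gave p = 0.2 in that exact permutation test, so that the separation was lost, and Day 4 again gave p = 0.1. The rRNAs took 0.581% ± 0.079 in EtOH and 0.774% ± 0.027 in OHT at Day 2 without overlap, and 0.614% ± 0.020 and 0.564% ± 0.048 at Day 4 with overlap. In bulk RNA, fewer mitochondrial transcripts per cell and a change in the RNA of other genes cannot be told apart.

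A ratio inside one library needs no scaling between libraries. With copies summed in, *mt-Nd6* made 2.65, 2.41 and 3.18 counts per 1000 counts of the heavy-strand mRNAs in EtOH and 2.41, 2.47 and 2.80 in OHT at Day 2, with overlap. At Day 4 there were 3.22, 2.63 and 3.26 in EtOH against 5.44, 5.47 and 4.88 in OHT, and every OHT library was above every EtOH library. On TPM of the genes as deposited, the log2 ratio was -6.85 ± 0.22 in EtOH and -6.99 ± 0.18 in OHT at Day 2 (SD, n = 3, exact two-sided permutation p = 0.4), and -6.89 ± 0.19 and -6.16 ± 0.10 at Day 4 (exact two-sided permutation p = 0.1, the smallest possible).

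*mt-Co1* made up a smaller part of the mitochondrial mRNA in OHT on both days. With copies summed in, it took 54.8% ± 0.5 of the mRNA counts in EtOH and 52.0% ± 0.7 in OHT at Day 2, and 48.5% ± 0.8 and 43.7% ± 0.5 at Day 4 (SD, n = 3). The groups did not overlap on either day (exact two-sided permutation p = 0.1, the smallest possible).

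**Figure D4:**
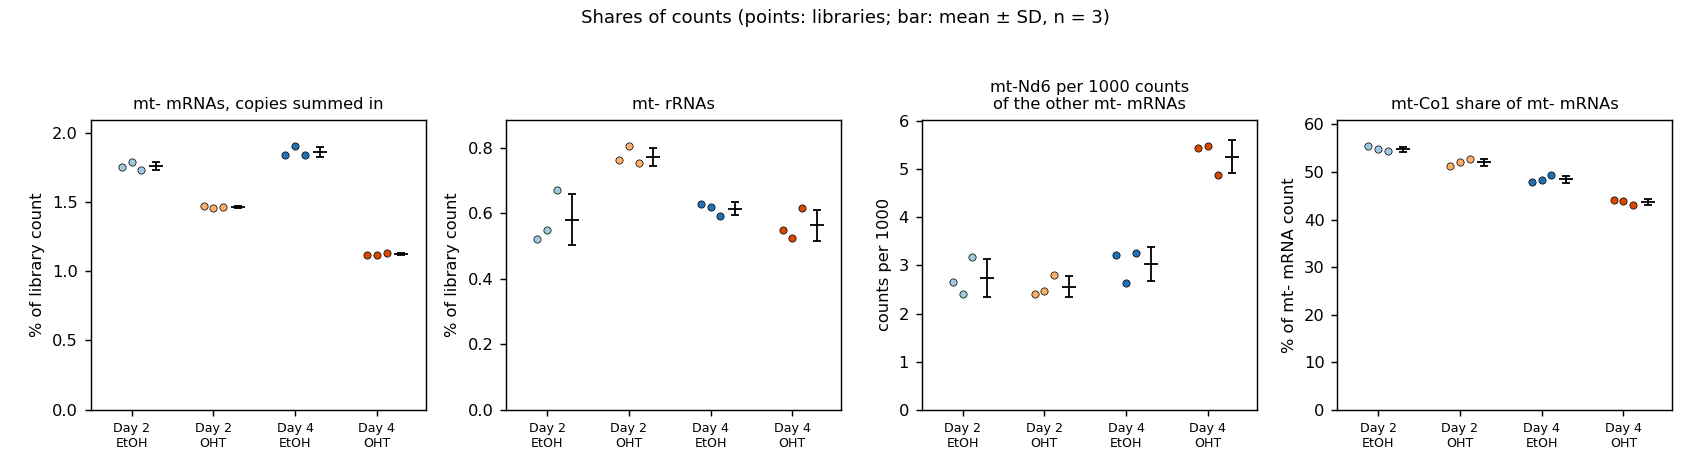
From left to right, the panels plot the mitochondrial mRNAs with copies and the rRNAs as a percentage of all counts, *mt-Nd6* counts per 1000 counts of the other mitochondrial mRNAs, and *mt-Co1* as a percentage of the mitochondrial mRNA count, with 1 point per library and the mean and SD of each group of 3. The mRNA share is lowest in OHT at Day 4 (1.12%), where the *mt-Nd6* ratio is highest.

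The nuclear genes that serve mitochondrial RNA and the respiratory chain were followed in 7 lists, with 129 genes in the files. All values below are DESeq2 fits of the genes as deposited. At Day 2, 0 of the 128 genes tested rose, by DESeq2 and by edgeR (1 at an unadjusted p below 0.05), and 17 fell (background 9.17% higher and 10.6% lower), and the median log2 fold change was -0.08 beside -0.03 over all genes. At Day 4, 56 of 129 rose and 23 fell (background 23.5% higher and 21.7% lower), with a median of 0.07 beside 0.01.

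The list of mitochondrial transcription factors and polymerase fell at Day 4, with 8 of 11 genes lower, 0 higher and a median of -0.20. The background over all genes at Day 4 was 21.7% lower and 23.5% higher. *Tfam*, which packages and activates mitochondrial DNA, had 4490 ± 183 normalised counts in EtOH and 4083 ± 37.9 in OHT at Day 4 (SD, n = 3), a fall of 0.14 ± 0.04 on the log2 scale (SE). *Polrmt*, the mitochondrial RNA polymerase, had 1259 ± 42.7 in EtOH and 1091 ± 44.8 in OHT at Day 4, a fall of 0.21 ± 0.06 (SE). Neither was called at Day 2. *Mterf3*, a member of the mitochondrial transcription termination factor family, had the most negative log2 fold change of the list. It had 1119 ± 34.9 in EtOH and 712 ± 31.9 in OHT at Day 2, and 1055 ± 46.1 and 720 ± 20.0 at Day 4, and fell on both days, by 0.65 ± 0.07 and 0.55 ± 0.07 (SE).

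Of 32 genes for mitochondrial RNA processing and decay, 11 fell and 8 rose at Day 4, and 5 fell and 0 rose at Day 2. Over all genes, 21.7% fell and 23.5% rose at Day 4, and 10.6% fell and 9.17% rose at Day 2. *Ptcd2*, which encodes a pentatricopeptide repeat protein that acts on mitochondrial RNA, had the most negative value on both days. It had 1803 ± 112 normalised counts in EtOH and 780 ± 28.7 in OHT at Day 2, and 1703 ± 43.0 and 636 ± 23.1 at Day 4 (SD, n = 3). On the log2 scale it fell by 1.21 ± 0.07 at Day 2 and fell by 1.42 ± 0.07 at Day 4 (SE, DESeq2 adjusted p = 2.52e-64 and 2.58e-103). *Mrm1*, an rRNA methyltransferase, had the most positive value at Day 4, 0.59 ± 0.08 (SE), and was not called at Day 2. *Lrpprc*, whose product binds mitochondrial mRNA, was chosen after its values were seen. It fell by 0.41 ± 0.04 at Day 2 and by 0.62 ± 0.03 at Day 4 on the log2 scale (SE). *Slirp*, of the same list and also looked up afterwards, was not called on either day (-0.10 ± 0.05 and -0.02 ± 0.05, SE). A part of *Lrpprc* in the values of the mitochondrial mRNAs was not tested. Of 15 genes for maintenance of mitochondrial DNA, 1 fell and 4 rose at Day 4, beside the same shares over all genes. The gene that fell was *Polg*, the mitochondrial DNA polymerase, by 0.41 ± 0.05 at Day 2 and 0.38 ± 0.05 at Day 4 (SE), and *Slc25a36*, a mitochondrial nucleotide carrier, had the most positive Day 4 value, 0.40 ± 0.04 (SE).

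Of the 71 nuclear subunits of the respiratory chain and ATP synthase, 44 rose and 3 fell at Day 4, and the others did not pass the test. Over all genes, 23.5% rose and 21.7% fell at Day 4. Of 36 complex I subunits, 23 rose and 0 fell, with a median log2 fold change of 0.16, and the most positive was *Ndufb9* at 0.31 ± 0.04 (SE). Of 11 complex IV subunits, 10 rose and 0 fell, with a median of 0.21, and the most positive was *Cox4i1* at 0.32 ± 0.03 (SE). Of 15 ATP synthase subunits, 8 rose and 1 fell, from *Atp5b* at 0.26 ± 0.02 to *Atp5g1*, which fell by 0.19 ± 0.03 (SE). Of 9 complex III subunits, 3 rose and 2 fell, not far from the shares over all genes. *Uqcrc1* was the most positive at 0.21 ± 0.03 and *Uqcrq* the most negative, which fell by 0.26 ± 0.05 (SE). At Day 2, 0 of these 71 subunits rose and 10 fell, against 0 and 30 at an unadjusted p below 0.05. The background at Day 2 was 9.17% of genes higher and 10.6% lower. The edgeR test called 1 complex I subunit lower at Day 4 and no complex IV subunit lower.

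**Figure D5:**
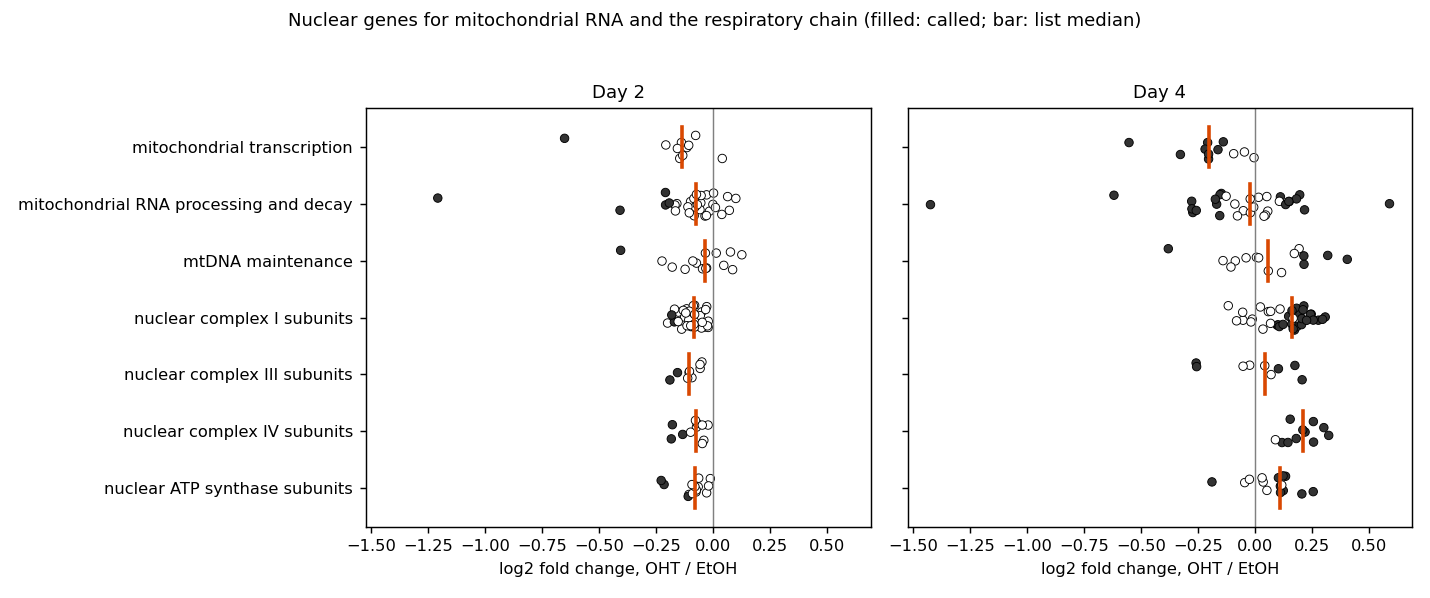
The log2 fold change of OHT over EtOH (horizontal axis) is plotted at Day 2 (left) and Day 4 (right) for each nuclear gene tested, in 7 lists, with filled points for genes called by DESeq2 and a bar at the median of the list. At Day 4 the medians of the lists of complex I, complex IV and ATP synthase subunits are 0.16, 0.21 and 0.11, and that of the transcription list is -0.20, where *Mterf3* stands apart, as *Ptcd2* does in the processing list.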

How the data were processed

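Expression was measured by stranded total RNA-seq in 12 libraries, assigned to 4 groups by their labels. The submitters' processing notes name STAR (version 2.6.0c), RSEM, GRCm38.p6 and GENCODE vM18, from which the authors made the deposited expected counts per gene. RSEM shares a read that maps to several genes among them, so that counts need not be whole. The deposited TPM values, posterior mean counts and effective lengths come from the same step. The posterior SD deposited beside each count is a signal that grows as reads are shared. The files with log2 fold changes and p-values of the authors' own comparisons (DESeq2 version 1.22.2) served only to give 54079 of 54146 genes a symbol.

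Expected counts were rounded and fitted over all genes with DESeq2 (version 1.42.0, R 4.3.3), following the study's methods: Wald test, median-of-ratios size factors, Benjamini-Hochberg adjustment over the genes left by DESeq2's independent filtering of low counts, and a call at adjusted p below 0.05 with a mean normalised count above 100. Fold changes are unshrunken. Each comparison was fitted on its own libraries, whereas printed normalised counts share size factors of all 12. Shares and ratios were compared by exact two-sided permutation tests over libraries. Nuclear copies were found with blastn (version 2.17.0) in GENCODE vM21 transcripts. The sources used here name no molecular identifiers and counting intervals would cover counting error only, so that errors are given as SDs over libraries. The DESeq2 fit of OHT against EtOH was tested on simulated counts with the means and library sizes of the Day 2 libraries.

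Named were all measured mitochondrial genes, their copies with a mean expected count above 10 (the others as a group), *Prdm10*, *Tfam*, *Polrmt* and, per nuclear list, the extremes among genes called at Day 4. *Lrpprc* and *Slirp* were named outside this rule, after their values were seen. The members and lists were chosen with earlier results of these data known. Alternatives were edgeR (version 4.0.16), TMM factors, total counts, effective lengths as offsets, posterior mean counts, copies summed in, the replicate number as a block, all libraries in 1 fit, no minimum mean, other denominators, and each library left out. Combinations with copies summed in were chosen after seeing the data.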

Additional observations from a re-analysis of the deposited data

Results flagged for a closer look

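For 12 mitochondrial genes as deposited, the log2 fold change of OHT over EtOH differed between the days by the interaction test (DESeq2, adjusted p below 0.05). The value is the Day 4 log2 fold change minus that at Day 2. It was -1.14 for *mt-Rnr1*, -0.42 for *mt-Rnr2*, -0.64 for *mt-Nd1*, -0.69 for *mt-Nd2*, -0.50 for *mt-Co1*, -0.55 for *mt-Atp8*, -0.94 for *mt-Nd4*, -0.39 for *mt-Nd5* and -0.77 for *mt-Cytb*. It was 0.47 for *mt-Nd6*, the only positive one. It was -1.28 for *mt-Atp6* and -1.25 for *mt-Nd4l*, which became -0.56 and -0.33 once the reads of their nuclear copies were summed in. As deposited, both calls were lost in 8 of the 12 fits that left out 1 library, with log2 differences as small as -0.99 for *mt-Atp6* and -0.90 for *mt-Nd4l*. The call for *mt-Nd6* was lost without Day 2 OHT replicate 2 (0.44). Groups of 3 libraries are too small for a test of single outlying libraries.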

How the results depend on the processing

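At Day 4, 10 to 13 genes as deposited were called lower under the alternatives, and 10 to 12 without each library in turn, where *mt-Co3* lost its call in 5 of 6 fits, *mt-Atp6* lost it in 3 and *mt-Rnr2* gained one. The combined counts gave 13 to 14 lower and 0 higher. The edgeR test called 1 gene higher at Day 4, *mt-Co2*. Its Day 4 log2 fold change of 0.60 reversed to -0.46 with posterior mean counts and to -0.55 with copies summed in. Summing copies also reversed *mt-Co2* in the interaction (-0.33), between the days in EtOH (0.22) and in OHT (-0.11), and *mt-Co3* in the interaction (-0.18) and between the days in OHT (-0.061), since these values rest on how reads were divided. It raised the genes called lower at Day 2 to 5 and those called higher between the days in EtOH to 7.

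Without each library in turn, the genes called higher at Day 2 ranged from 1 to 4, as deposited and with copies summed in, those called higher in the interaction from 0 to 1, and those between the days in EtOH from 1 to 2 lower and 4 to 8 higher, the most without Day 2 EtOH replicate 3. As a share of TPM, the log2 ratio of mitochondrial mRNA (OHT over EtOH) was -0.18 (exact permutation p = 0.2) on Day 2 and -0.69 on Day 4, where the share of counts gave -0.28 and -0.74. Of the nuclear lists, 17 genes were called lower at Day 2, but 9 with total counts, 10 with the replicate block and 9 to 22 without each library in turn. The cause of these shifts was not tested.

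Same-numbered OHT and EtOH libraries did not visibly deviate together (correlations from -0.23 to 0.12, and from -0.31 to 0.38 for other pairs). With 3 libraries per group, each centred on its own mean, a weak pairing would not show. The main fits did not use the numbers to pair the samples. With the replicate block, 12 genes were lower at Day 4 and 2 at Day 2, and 7 were higher between the days in EtOH. Sign flips of 3 same-numbered differences gave p = 0.25 for the share of mitochondrial mRNA on both days, the smallest that exact test allows. Shared reads and 3 libraries per group limit these values. Genes shorter than the fragments, the tRNAs, were not measurable.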
